A study of Mus musculus with 6 samples.

Results

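The genes at the entry of pyruvate into mitochondria were examined in cultured neonatal mouse ovary: the 4 pyruvate dehydrogenase kinases Pdk1, Pdk2, Pdk3 and Pdk4, the phosphatases Pdp1 and Pdp2, the enzyme subunit gene Pdha1, the carriers Mpc1 and Mpc2, and Cpt1a. They were found by exact symbol and are 10 of the 27098 genes in the deposited table of raw counts. The set was chosen from values of the same comparison that is described here, because Pdk4 was already known to be lower with platelet-rich plasma (PRP) when libraries of the same number were compared. The remaining members were added by function. The differences between PRP and control are therefore given as a description and support nothing.

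Ovaries of mice 3 days after birth were kept for 2 h in DMEM/F12 with antibiotics, either alone (control, 3 libraries) or with 2% PRP (3 libraries). PRP is a plasma fraction enriched in platelets and the growth factors they release. The series text describes it as human and activated with thrombin, and no group of thrombin or ordinary plasma alone is among the labels. No strain, genotype or pooling of animals is stated. Each library is whole ovary, so that fewer cells of a type and less RNA per cell cannot be told apart.

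Pyruvate made by glycolysis crosses the inner mitochondrial membrane through a carrier built from MPC1 and MPC2. The pyruvate dehydrogenase complex then converts it to acetyl-CoA. PDK enzymes phosphorylate the E1 alpha subunit, encoded by Pdha1, and switch the complex off, and PDP enzymes remove the phosphate and switch it on. CPT1A passes long-chain fatty acids to the carnitine shuttle, the competing source of acetyl-CoA. Pdk4 is known as the kinase gene most responsive to fasting, glucocorticoids, PPAR and FOXO factors, and is repressed by insulin. Oocytes take up pyruvate that the surrounding follicle cells supply.

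Library totals ran from 35568000 to 36568367 counts. Ovarian identity was plain in all 6 libraries: Foxl2, a granulosa transcription factor, lay between 162 and 198 CPM (counts scaled to a common library size with TMM factors, the trimmed mean of M values), Wt1 of somatic ovarian cells between 293 and 391 CPM, the germ cell helicase gene Ddx4 between 80.8 and 89.2 CPM and the egg coat gene Zp3 between 214 and 521 CPM. Control 3 stood apart in 7 erythroid genes, whose summed level was 1532 CPM there and 108 to 225 CPM in the other libraries. Skeletal muscle and adipose tissue, where Pdk4 is abundant, left little trace. The highest value of Ckm was 0.199 CPM and that of Adipoq 0.227 CPM, and the summed lists of 10 muscle and 8 adipocyte markers ranged from 18.6 to 25.1 and from 12.3 to 16.6 CPM. Most of those sums came from Actn3 (12.1 to 15.2 CPM) and Lipe (9.96 to 14.3 CPM). The sums were 18.6 to 23.6 CPM in control and 18.9 to 25.1 CPM in PRP for muscle, and 12.6 to 13.5 and 12.3 to 16.6 CPM for adipocytes.

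The kinase paralogues sit at separate loci, and the 250 bases before the listed start of each (RefSeq, GRCm38.p6) are shown so that Pdk4 can be set beside its paralogues. Pdk1 is at chr2:71872974-71873223 on the plus strand (the start listed for this promoter lies just inside the RefSeq gene span), Pdk2 at chr11:95041372-95041621, Pdk3 at chrX:93832151-93832400 and Pdk4 at chr6:5496279-5496528, the last 3 on the minus strand. Sequences run 5′ to 3′ toward the start. Capitals mark matches on either strand to the CCAAT box, to the GC box letters GGGCGG and to the core ACGTG of the hypoxia response element, and a palindromic E-box is a match to the last of these on both strands.
Pdk1: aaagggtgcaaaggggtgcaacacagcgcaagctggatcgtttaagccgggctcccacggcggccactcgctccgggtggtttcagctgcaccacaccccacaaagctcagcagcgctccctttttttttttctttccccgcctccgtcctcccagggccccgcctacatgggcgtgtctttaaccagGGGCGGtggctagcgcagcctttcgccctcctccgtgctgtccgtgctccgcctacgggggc
Pdk2: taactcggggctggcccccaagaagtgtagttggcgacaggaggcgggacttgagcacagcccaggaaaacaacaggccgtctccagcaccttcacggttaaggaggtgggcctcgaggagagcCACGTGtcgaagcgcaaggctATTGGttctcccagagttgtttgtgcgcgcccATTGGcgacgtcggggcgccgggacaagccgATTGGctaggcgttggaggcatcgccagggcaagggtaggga
Pdk3: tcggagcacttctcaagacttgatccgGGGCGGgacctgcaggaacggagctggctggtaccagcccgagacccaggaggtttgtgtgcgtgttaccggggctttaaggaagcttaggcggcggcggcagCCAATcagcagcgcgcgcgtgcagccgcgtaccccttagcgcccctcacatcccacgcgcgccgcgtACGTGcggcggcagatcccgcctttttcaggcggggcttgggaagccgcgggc
Pdk4: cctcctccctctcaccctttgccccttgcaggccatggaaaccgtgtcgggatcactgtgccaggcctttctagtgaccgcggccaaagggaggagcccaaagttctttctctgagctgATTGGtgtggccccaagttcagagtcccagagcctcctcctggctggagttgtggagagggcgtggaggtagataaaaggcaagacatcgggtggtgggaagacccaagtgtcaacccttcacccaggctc

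Promoter windows were found for 9 of the 10 genes, Pdp1 being the one not matched. A CCAAT match was present in Pdk4 (131 bases before the start), Pdk3 (120 bases) and, 3 times, in Pdk2 (105, 73 and 42 bases), and 33.8% of 32851 promoter windows of that length hold one. The letters GGGCGG were in the windows of Pdk1 and Pdk3 (32.7% of all windows), and ACGTG in those of Pdk2 and Pdk3 (16.6%). Of the other members, Pdp2, Mpc1, Mpc2 and Cpt1a also held both CCAAT and GGGCGG, and Pdp2 held ACGTG. None of the 4 kinase windows held the TATA box letters TATAAA (12.4% of all), the FOXO motif GTAAACA (3.17%) or the nuclear receptor element AGGTCA (4607 of the 32851), all searched on both strands. Outside the kinases, AGGTCA was in the window of Cpt1a, 94 bases before the start. Of the 9 windows, that of Pdk4 had the fewest CG dinucleotides, 6 against 11 in Pdp2 and 14 to 32 in the other 7. The median over all windows was also 6. The GC content of the Pdk4 window was 58.8%, below 59.6% to 73.6% in the other 8 but above the median of 52.4% over all windows. These matches are descriptions of letters and not binding sites.

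Pdk4 (Entrez 27273, chromosome 6, 5483351 to 5496278 of GRCm38) had 1390, 1979 and 1855 counts in controls 1, 2 and 3, and 1013, 1514 and 1485 counts in PRP 1, 2 and 3. On TMM library sizes this was 38.8, 55.1 and 52.7 CPM in control and 27.8, 41.8 and 41.1 CPM in PRP, or 48.9 ± 8.8 and 36.9 ± 7.9 CPM (SD, n = 3 per group). Each PRP library lay below the control of the same number, but the groups overlapped, because control 1 was lower than PRP 2 and PRP 3. The libraries numbered 1 were the lowest of both groups.

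The log2 fold change of Pdk4, PRP minus control, was -0.40 ± 0.19 in the unpaired edgeR fit (SE, n = 3 per group; 95% interval -0.84 to 0.03) and -0.41 ± 0.07 with the replicate number as a block (-0.56 to -0.26). The differences within numbers 1, 2 and 3 were -0.48, -0.40 and -0.36. On the log2 scale, 58.9% of the variance of Pdk4 went with replicate number and 40.5% with treatment, which left 0.603% for the rest. Over 11165 genes with a mean log2 CPM of at least 3, the medians were 58.8% and 12.0%. No label says what a replicate number stands for. The value was -0.24 without PRP 1 in the unpaired fit and -0.31 without control 2. It was -0.35 without control 3, the library with the high erythroid genes.

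With an adjusted p under 0.05, 0 of the 10 genes were called in the unpaired fit, where 0% of the 17475 genes tested were (557 had an unadjusted p under 0.05, and DESeq2 and limma-voom also called 0). With the block, 1 of the 10 was called lower, Pdk4 (edgeR, adjusted p = 0.0331), where 0.0401% of all genes were called lower and 0.0801% higher. That call is the one that led to the choice of this set. It was lost in limma-voom with the block (adjusted p = 0.0669), in the blocked edgeR fit without robust estimation (0.114), and in the blocked fit without replicate 1, 2 or 3 (0.189, 0.225 and 0.075).

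**Figure D1:**
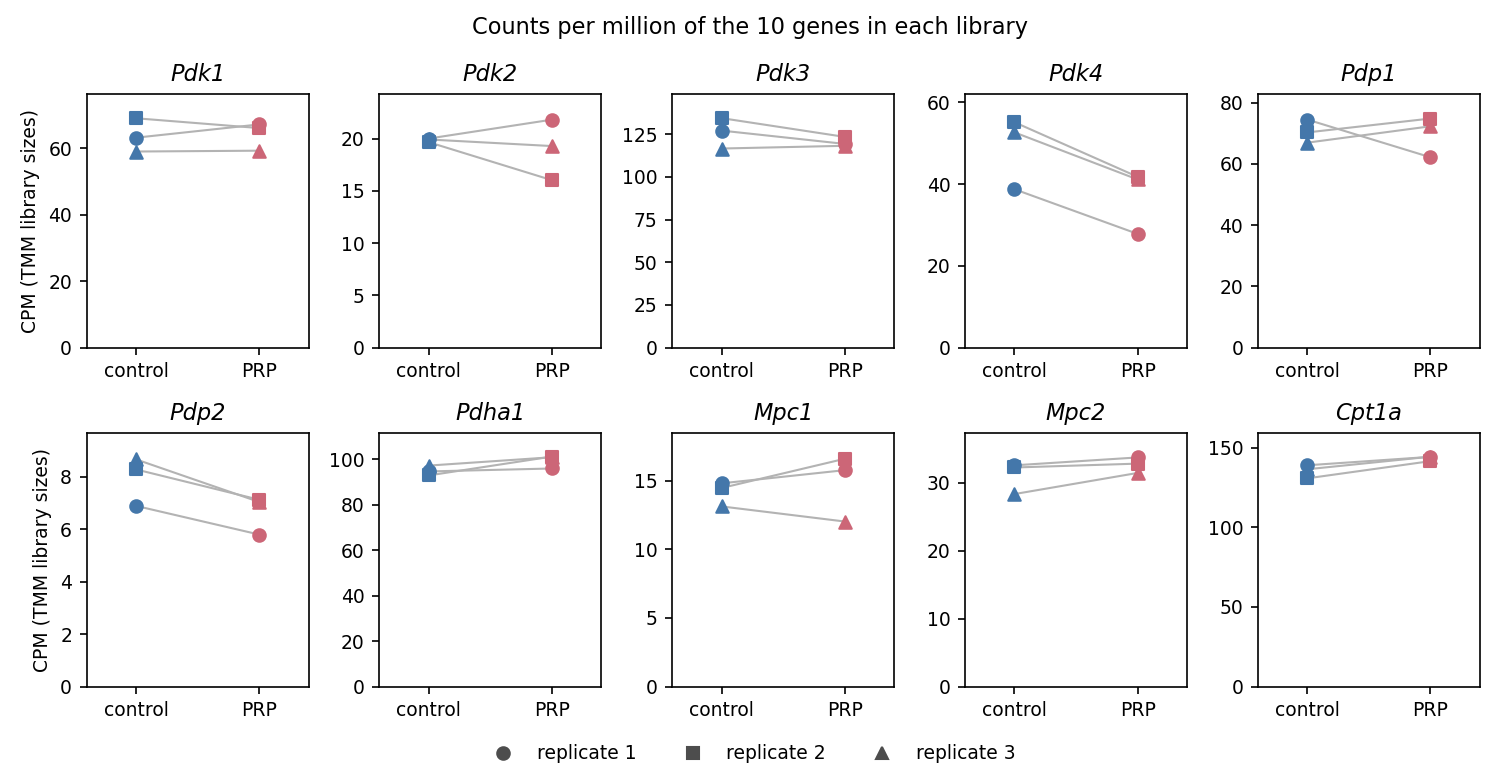
CPM of each gene (vertical axes from 0, on TMM library sizes) in control (blue) and PRP (red), with a symbol for each replicate number and a grey line between libraries of the same number. The 3 lines of Pdk4 run down by nearly the same step from unequal starts, and Pdp2 shows a similar shape at under 9 CPM.

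The other kinases were ordered differently over the libraries. Pdk1 (Entrez 228026, not the Pdpk1 gene that carries the same alias; chromosome 2, 71873215 to 71903858) is a target of the hypoxia-inducible factor. It had 63.2, 69.0 and 59.0 CPM in controls 1, 2 and 3 and 67.1, 66.0 and 59.2 CPM in PRP. The groups overlapped throughout, with a log2 fold change of 0.01 ± 0.08 (SE; 95% interval -0.18 to 0.20), and replicate number held 86.9% of its variance.

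Pdk2 (Entrez 18604, chromosome 11, 95026258 to 95041371), a broadly expressed isoform, had 20.02, 19.67 and 19.93 CPM in control and 21.83, 16.03 and 19.3 CPM in PRP. The 3 controls were nearly equal, while the PRP libraries lay on both sides of them. Its log2 fold change was -0.06 ± 0.13 (SE). Its span overlaps other genes of the table (Gm11513 and LOC115486429), and since the counting is not described, reads of these could be assigned to either.

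Pdk3 (Entrez 236900, X chromosome, 93764616 to 93832150) had 127.1, 134.4 and 116.6 CPM in control and 119.3, 123.4 and 118.2 CPM in PRP. The PRP values fell inside the range of the controls, and the log2 fold change was -0.07 ± 0.07 (SE; -0.22 to 0.09).

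Per kilobase of the longest coding transcript (GENCODE M21, GRCm38), Pdk3 was the highest of all 10 genes, at 55.1 to 63.5 CPM per kb over the 6 libraries. No other member reached its range. Pdha1 (32.6 to 35.5), Cpt1a (30.3 to 33.4) and Mpc2 (27.6 to 32.9) followed, neighbours whose ranges over the libraries overlapped, although Pdha1 lay above Cpt1a and Mpc2 in each of the 6 libraries. Pdp1 (14.8 to 17.8), Mpc1 (12.5 to 17.3), Pdk4 (7.99 to 15.8) and Pdk1 (11.4 to 13.3) formed a lower group of overlapping ranges. Pdk2 (7.14 to 9.72) lay below Pdk1, though its range overlapped that of Pdk4, and Pdp2 (1.02 to 1.52) lay below all others. With coding length in place of transcript length, 4 of the 10 genes kept their rank, Pdk3, Pdk4, Pdk2 and Pdp2. Pdk1, whose longest transcript has 5185 bases and a coding part of 1302, moved from the eighth to the fifth place. By coding length Mpc2 (74.4 to 88.5 CPM per kb, mean 83.6) ranked just above Pdha1 (79.4 to 86.5, mean 83.0). The order of these genes thus depended on the length used.

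**Figure D2:**
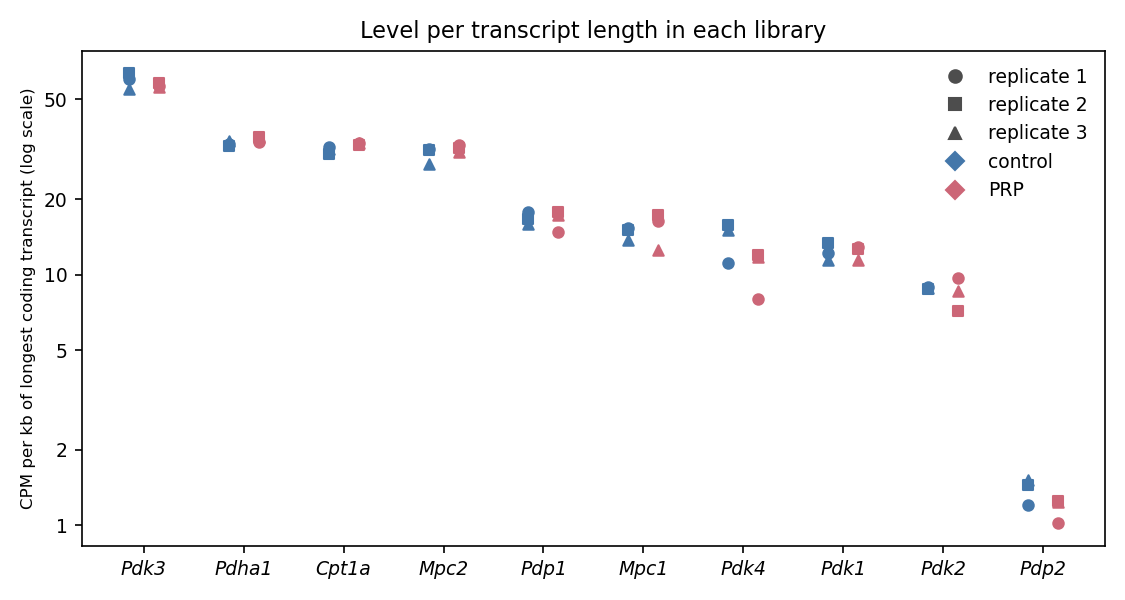
Level of each gene in CPM per kilobase of its longest coding transcript (vertical log axis), ordered by the mean of 6 libraries, with control libraries in blue, PRP libraries in red and a symbol for each replicate number. Pdk3 stands at 55.1 to 63.5 and Pdp2 at 1.02 to 1.52, and the points of Pdk4 spread from 7.99 to 15.8.

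Of the summed level per kb of the 4 kinases, Pdk3 supplied 60.9% to 65.1% in the 6 libraries, Pdk1 12.6% to 14.8% and Pdk2 7.92% to 11.2%. The share of Pdk4 was 12.0%, 15.6% and 16.7% in controls 1, 2 and 3 and 9.18%, 13.3% and 13.5% in PRP 1, 2 and 3. It was lower in PRP at each number, and the groups overlapped. By coding length the share of Pdk4 was 15.8%, 20.1% and 21.5% in control and 12.0%, 17.2% and 17.6% in PRP, and Pdk3 still supplied 47.3% to 51.5%. The 4 kinases together had 92.3, 101.0 and 90.5 CPM per kb in control and 87.0, 90.1 and 87.7 in PRP. Without Pdk4, whose values led to the choice of these genes, the sums were 81.2, 85.6 and 75.4 CPM per kb in control and 79.0, 78.1 and 75.9 in PRP, and the groups overlapped. The ratio of the summed kinases to the summed phosphatases was 4.88, 5.58 and 5.19 in control and 5.5, 4.73 and 4.76 in PRP, higher in PRP at number 1 and lower at numbers 2 and 3.

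Pdp1 and Pdp2 encode the catalytic subunits of the phosphatase that reverses the kinases. Pdp1 (Entrez 381511, chromosome 4, 11958183 to 11966450) had 74.5, 70.3 and 66.9 CPM in control and 62.2, 74.8 and 72.3 CPM in PRP. PRP 1 was the lowest and PRP 2 the highest of the 6 libraries, so that the pairs went in both directions, and the log2 fold change was -0.02 ± 0.09 (SE).

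Pdp2 (Entrez 382051, chromosome 8, 104591472 to 104599026) was the least abundant member, with 247, 297 and 305 counts in control and 211, 258 and 254 counts in PRP. This was 6.89, 8.28 and 8.66 CPM in control and 5.79, 7.12 and 7.04 CPM in PRP. The order of the libraries was close to that of Pdk4: number 1 was lowest in both groups, and every PRP library lay below its own control. The within-number differences were -0.25, -0.22 and -0.30. The fitted log2 fold change was -0.26 ± 0.18 unpaired (SE; 95% interval -0.65 to 0.14) and -0.26 ± 0.15 with the block (SE; -0.58 to 0.07). Over the 6 libraries the log2 CPM of Pdp2 and Pdk4 had a Pearson correlation of 0.982, singled out as the highest of all member pairs. The other correlations of Pdk4 with members ran from -0.795 (Cpt1a) to 0.386 (Pdp1). The 6 points share treatment and replicate number. Among 11164 genes with a mean log2 CPM of at least 3, 0.0627% correlated with Pdk4 as highly. Pdp2, with a mean of 7.295 CPM, lay below that level and was not one of them. That share also makes no allowance for the pair having been picked as the highest. The kinase and the phosphatase act in opposite directions on the same subunit.

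Beside these, the summed level of 10 oocyte markers was 2309, 1653 and 2009 CPM in controls 1, 2 and 3 and 2585, 1788 and 2280 CPM in PRP, highest at number 1 in both groups and higher in PRP at each number. Much of the sum came from the egg coat genes Zp1, Zp2 and Zp3, and other members were ordered differently. Dazl, a germ cell RNA-binding protein gene, had 99.9, 113 and 77.6 CPM in control and 69.0, 114 and 79.2 CPM in PRP. Figla, an oocyte transcription factor gene, was highest at number 2 in both groups, and Nobox, Sycp3 and Ddx4 were lower in PRP than in control at number 1. All 10 markers were detected in all 6 libraries, and 0 passed the unpaired test. In the blocked test 2 passed, Zp2 and Zp3, where 0.0801% of all genes were called higher. Both calls were lost with the block in limma-voom and without robust estimation, where 0 genes passed. The sum of 7 stromal fibroblast markers, mostly collagen genes, was 7416 to 9142 CPM in control and 7961 to 9579 CPM in PRP and higher in PRP at each number. Pdgfra was lower in PRP at numbers 2 and 3, and 0 of the 7 passed either test. The 10 granulosa markers summed to 1818 to 1952 CPM in control and 1878 to 1909 CPM in PRP. Members went in both directions, Kitl being lower in PRP at each number and Foxl2 higher at numbers 2 and 3. Of the 10, 0 passed either test. The part of cell composition in the values of Pdk4 and Pdp2 was not tested.

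**Figure D3:**
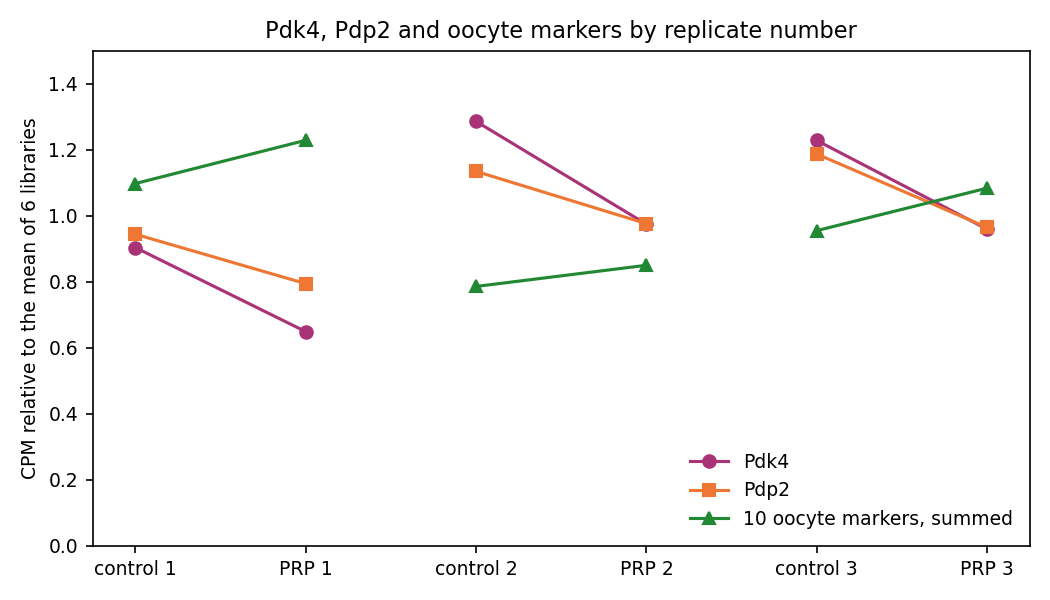
CPM of Pdk4, of Pdp2 and of 10 oocyte markers summed, each divided by its own mean over 6 libraries (vertical axis, from 0), with lines between control and PRP of the same number. Pdk4 and Pdp2 are lower in PRP at numbers 1, 2 and 3 and lowest at number 1, where the oocyte sum, carried mostly by Zp1, Zp2 and Zp3, is highest.

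The subunit that these enzymes act on and the pyruvate carriers followed. Pdha1 (Entrez 18597, X chromosome, 160122219 to 160138430) had 94.7, 92.9 and 97.2 CPM in control and 96.0, 101.2 and 100.9 CPM in PRP. It was higher in PRP at each number by 0.02 to 0.12 on the log2 scale, while PRP 1 lay below control 3. The fitted difference was 0.07 ± 0.06 (SE; -0.07 to 0.20). It was the steadiest member, with a highest-to-lowest ratio of 1.09 over the 6 libraries, against 1.98 for Pdk4 and a median of 1.24 over the 11165 genes. Of those genes 3.05% spanned as much as Pdk4. The span of Pdha1 overlaps Map3k15 and Gm39547.

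Mpc1 (Entrez 55951, chromosome 17, 8283787 to 8297667) had 14.8, 14.5 and 13.1 CPM in control and 15.8, 16.6 and 12.0 CPM in PRP. PRP 3 was the lowest and PRP 2 the highest library, and the fitted difference was 0.07 ± 0.15 (SE; -0.27 to 0.40). Its span overlaps 4930506C21Rik.

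Mpc2 (Entrez 70456, chromosome 1, 165461260 to 165481218) had 32.6, 32.2 and 28.3 CPM in control and 33.7, 32.8 and 31.4 CPM in PRP. It was higher in PRP at each number and the groups overlapped, with a difference of 0.07 ± 0.09 (SE). Although the 2 proteins act as one carrier, the level per kb of transcript of Mpc2 was 1.85 to 2.46 times that of Mpc1 in all 6 libraries. The ratio depends on the length used: by coding length the means were 83.6 CPM per kb for Mpc2 and 28.9 for Mpc1.

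Cpt1a (Entrez 12894, chromosome 19, 3322326 to 3385735), the carnitine palmitoyltransferase of the outer mitochondrial membrane, had 138.9, 130.7 and 136.4 CPM in control and 144.2, 141.5 and 144.3 CPM in PRP. It was the only member whose groups did not overlap: 1 of 10 lay higher in every PRP library, where 4.34% of all genes did, and 0 of 10 lay lower, where 4.87% did. The step was small, 0.08 ± 0.06 on the log2 scale (SE; -0.04 to 0.21). The fitted value of Pdk4, like Cpt1a a known PPAR target gene, was below 0, and the unpaired intervals of both genes included 0. A part of PPAR in either value was not tested. Over all 10 genes, 5 log2 fold changes were above 0 and 5 below, with a median of -0.0035 beside 0.00134 over all genes tested.

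**Figure D4:**
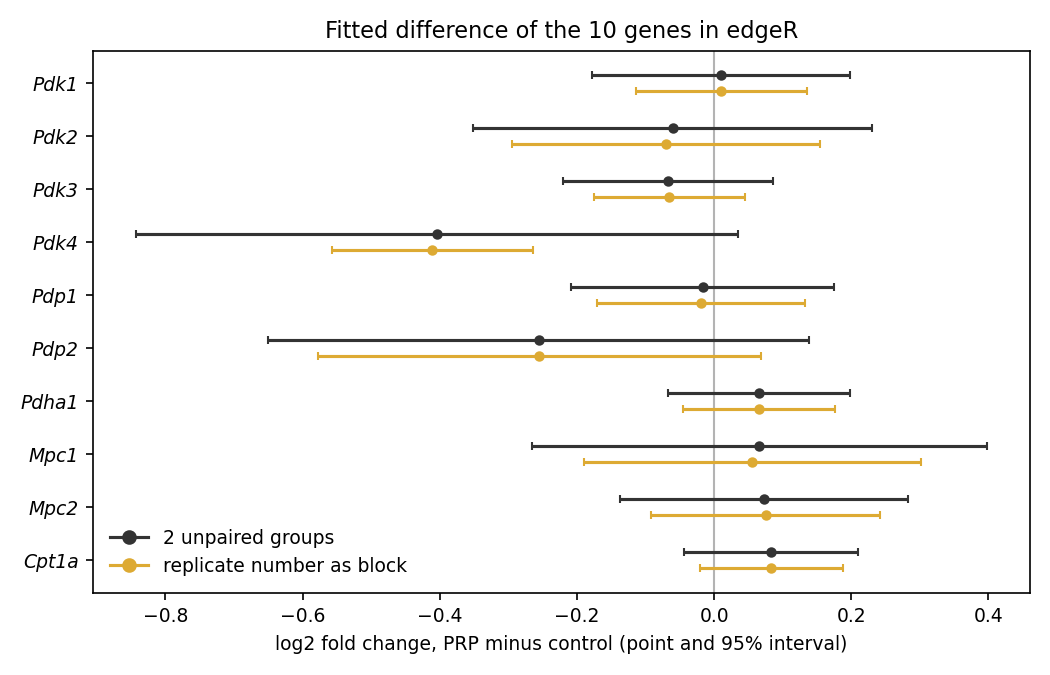
Fitted log2 fold change of each gene, PRP minus control (horizontal axis), with its 95% interval, for 2 unpaired groups (black) and with the replicate number as a block (yellow). Only the blocked interval of Pdk4 (-0.56 to -0.26) lies away from 0, and the values of 8 genes are within 0.1 of it.

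The genes around these steps were described through 6 lists of 111 pathway genes, of which 105 could be tested. In the unpaired edgeR fit 0 of the 105 passed in either direction, and 0 had an unadjusted p under 0.05, where 3.19% of all genes did. With the block 1 passed, and 10 (9.52%) had an unadjusted p under 0.05, close to the 11.2% of all genes. Their median log2 fold change was 0.02 (63 above and 42 below 0).

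Of the pyruvate dehydrogenase complex and its cofactor genes, 10 of 10 were tested, 0 passed in either fit, and the median was -0.02. Pdpr, whose product restrains the phosphatase PDP1, had a control mean of 127.2 ± 9.6 CPM against 117.7 ± 8.9 CPM with PRP (SD, n = 3 each), lower at all 3 numbers. Pdhx, the E3-binding protein, had a log2 fold change of -0.11 ± 0.09 and Lipt1, a lipoyltransferase, 0.14 ± 0.14 (SE). The E1 beta, E2 and E3 genes Pdhb, Dlat and Dld, named in addition after their values were seen, were at 0.04 ± 0.08, -0.01 ± 0.09 and -0.02 ± 0.06 (SE).

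Of 17 tested genes of pyruvate and lactate handling, 0 passed and the median was 0.03. Ldhb is the lactate dehydrogenase chain of oxidative tissue. Its control mean was 724.4 ± 86.0 CPM against 809.6 ± 91.0 CPM with PRP (SD, n = 3 each). It was higher in PRP at all 3 numbers, and the groups overlapped. The unpaired log2 fold change of Ldhb was 0.16 ± 0.10 (SE, interval -0.07 to 0.39). With the block it was 0.16 ± 0.04 (SE), and Ldhb passed in neither fit (blocked edgeR, adjusted p = 0.157). Bsg, the chaperone of monocarboxylate transporters, was at 0.10 ± 0.06, and Me2, mitochondrial malic enzyme, at -0.15 ± 0.12 (SE, unpaired).

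The tricarboxylic acid cycle list lay slightly above 0, with 13 of 17 genes higher in PRP and a median of 0.05, and 0 passed in either fit. Its median differences within numbers 1, 2 and 3 were 0.06, -0.02 and 0.08, so that number 2 went the other way. Groups did not overlap for 4 of the 17, Idh3g, Mdh2, Sdha and Sdhd, all higher in PRP, where 4.34% of all genes were. Idh3g, a subunit of NAD-dependent isocitrate dehydrogenase, had a control mean of 94.2 ± 3.4 CPM against 101.0 ± 1.1 CPM with PRP (SD, n = 3 each). Mdh2, mitochondrial malate dehydrogenase, was at 0.09 ± 0.06, and Idh2, the NADP-dependent enzyme, at 0.15 ± 0.07 (SE), the latter lower in PRP at number 3. Sdha and Sdhd, subunits of succinate dehydrogenase, were named after their values were seen, at 0.06 ± 0.05 and 0.08 ± 0.06 (SE).

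In the carnitine shuttle and beta oxidation list, which surrounds Cpt1a, 20 of 21 genes were tested, 15 lay above 0, the median was 0.04 and 0 passed. The medians within numbers were 0.05, -0.0047 and 0.09. Slc25a20, the carnitine-acylcarnitine carrier, was at 0.15 ± 0.11, the enoyl-CoA hydratase Echs1 at 0.10 ± 0.07 and the electron transfer subunit Etfb at 0.11 ± 0.09 (SE). All 3 were higher in PRP at every number.

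Known PPAR targets were tested in 16 of 18 cases, with a median of 0.05 and 0 that passed. Angptl4, a lipase inhibitor that is a usual companion of Pdk4 among PPAR and fasting targets, had a control mean of 66.3 ± 7.3 CPM against 59.7 ± 7.8 CPM with PRP (SD, n = 3 each). It was lower at all 3 numbers, by 0.10, 0.18 and 0.18 on the log2 scale, and the groups overlapped. Ech1, a peroxisomal and mitochondrial isomerase, was the 1 gene of the 16 that was higher in every PRP library (4.34% of all genes were), at 0.11 ± 0.06, and Fabp3, a fatty acid binding protein, was at 0.32 ± 0.19 (SE).

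Of 25 genes linked to the control of Pdk4 transcription, 16 lay below 0 and the median was -0.04. The deacetylase gene Sirt1 had a control mean of 66.1 ± 0.5 CPM against 60.9 ± 2.5 CPM with PRP (SD, n = 3 each) and did not overlap between groups. The same held for the insulin receptor gene Insr, named after its value was seen, so that 2 of 25 were lower in every PRP library, where 4.87% of all genes were. The FOXO factor genes Foxo1 and Foxo3 were at -0.11 ± 0.06 and -0.11 ± 0.07 (SE), and Foxo4, added after its value was seen, at 0.12 ± 0.12 (SE) and higher in PRP at all 3 numbers. None of the 3 passed. With the block 1 of the 25 passed, Nr4a1, an early-response nuclear receptor named here after its value was seen. Its blocked log2 fold change was 0.38 ± 0.06 (SE; edgeR, adjusted p = 0.0164). The unpaired value of Nr4a1 was 0.39 ± 0.36 (SE; interval -0.518 to 1.305). Its groups overlapped, with 58.1 to 114.6 CPM in control and 76.8 to 159.8 CPM in PRP. Without the block 0 of the 25 passed, and the call of Nr4a1 was also lost with the block in limma-voom and without robust estimation.

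**Figure D5:**
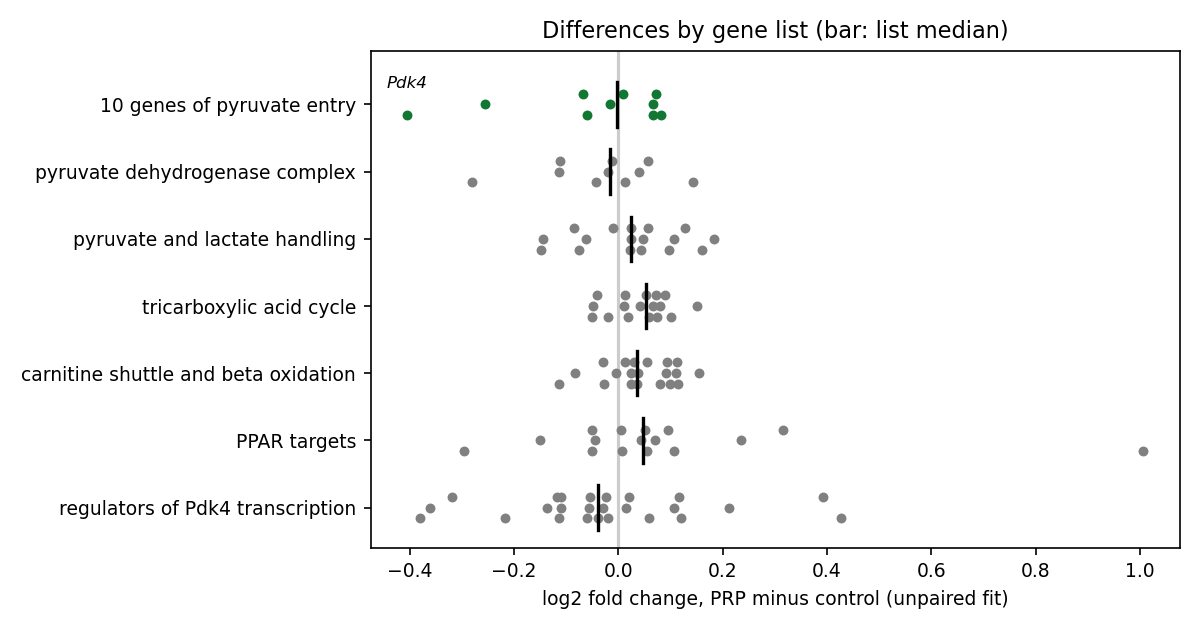
Log2 fold change in the unpaired fit (horizontal axis) of the 10 genes (green) and of the tested genes of 6 pathway lists (grey), 1 point a gene, with a black bar at each median. Medians lie between -0.04 and 0.05, and the point at 1.01 is Cyp4a10, with a mean of 0.364 CPM in the control and 0.735 CPM in the PRP libraries.

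The genes whose pattern was most like that of Pdk4 over the 6 libraries were Pard6b, Vmp1, Cilk1, Foxk1 and Casc1, with Pearson correlations of log2 CPM of 0.997, 0.997, 0.996, 0.988 and 0.987 among the 11164 genes compared. The most opposite were Dcaf5, Nrarp and Tnni3, at -0.996, -0.996 and -0.993. Pard6b, a cell polarity gene, had 41.1, 48.7 and 48.4 CPM in control and 33.7, 42.5 and 41.6 CPM in PRP, the same order of numbers at a smaller step. Nrarp, a feedback inhibitor of Notch signalling, had 14.8, 11.2 and 11.6 CPM in control and 20.68, 14.24 and 14.96 CPM in PRP. Of these 8 genes, 0 passed the unpaired or the blocked test. All 8 correlations rest on 6 points that share treatment and replicate number.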

How the data were processed

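RNA sequencing of whole cultured ovary gave 6 libraries, 3 control and 3 PRP, grouped by sample title. Per the labels' protocols, libraries came from total RNA with a SMARTER mRNA kit. Raw counts of 27098 gene symbols were deposited by the authors as 1 table. The build was GRCm38 (mm10), per the submitters' processing notes. The sources used here name no aligner, counting tool, strand setting or annotation, so that reads of overlapping genes are uncertain. The column of PRP 3 has its letters transposed and was assigned by elimination. Whether replicates are separate animals or cultures is not stated, and the tests therefore capture variation among these libraries only, possibly technical.

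Counts were fitted in edgeR 4.0.16 (R 4.3.3) with filterByExpr, TMM factors and robust quasi-likelihood F tests over 17475 genes, all two-sided. Benjamini-Hochberg adjusted p-values were called at 0.05. Standard errors came from the fold change and its F statistic. Log2 CPM for correlations and variance used a prior count of 2. DESeq2 1.42.0 and limma 3.58.1 (voom) were run as alternatives, as were other scalings, other filters and fits lacking 1 library or 1 replicate number. Transcript lengths are from GENCODE M21 and gene spans and promoters from RefSeq, both on GRCm38. The pipeline was tested on simulated data drawn with replicate number as a built-in effect. That test cannot show whether the pairing holds in the real libraries. Members and lists were chosen with earlier results of these data known. Named genes were all members, the 3 genes of smallest p in each list, the 5 most and 3 least like Pdk4, and 4 ovarian markers. Further list and marker genes (Pdhb, Dlat, Dld, Sdha, Sdhd, Nr4a1, Insr, Foxo4, Cyp4a10, Ckm, Adipoq, Actn3, Lipe, Zp1, Zp2, Dazl, Figla, Nobox, Sycp3, Kitl and Pdgfra) were named after their values were seen. Promoter starts and gene spans come from different RefSeq tables and can differ.

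Each library's deviation from its group mean was compared across groups over 11165 genes: same-numbered libraries had correlations of 0.49, 0.65 and 0.57, all others being below 0. Deviations of a gene sum to 0 within a group, so positive same-number values push the others below 0. The latter are therefore no separate support. The numbers were treated as pairs from these same counts and not from a label. The blocked fit thus rests on a pairing that the labels do not give. Blocked values are printed beside unpaired ones where the call of a member or pathway gene changes, and also for Pdp2 and Ldhb.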

Additional observations from a re-analysis of the deposited data

How the results depend on the processing

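The log2 fold change of Pdk4 was below 0 under all 18 alternatives. With the replicate block it was -0.411 and passed, and in none of the others did it pass. Leaving out libraries moved it between -0.548 and -0.236. Genes passing over the whole table numbered 0 in edgeR (557 with an unadjusted p under 0.05), DESeq2 (0 and 551) and limma-voom (0 and 564). The block gave 21 passing genes, 1 member and 1 pathway gene. The block without robust estimation and the block with limma-voom each gave 0 of all 3, so that every one of the 21 calls was lost. Leaving out libraries or replicate numbers gave 0 to 19 genes, 0 members and 0 to 1 pathway genes. The blocked count was 3 without replicate 1, 1 without replicate 2 and 19 without replicate 3. Differences near 0 changed sign when libraries were left out, ranging from -0.0423 to 0.0727 for Pdk1, -0.171 to 0.0501 for Pdk2, -0.0843 to 0.0992 for Pdp1 and -0.0238 to 0.196 for Mpc1. Among these fits, Pdk1 was at -0.0302 without replicate 1, Pdk2 at 0.04 and Mpc1 at -0.0161 without replicate 2 (all with the block), Pdk2 at -0.169 and Pdp1 at 0.0604 without PRP 1, and Pdp1 at -0.0695 without PRP 2. None of the 9 other members passed under any alternative. By coding length, 4 of the 10 members kept their rank by level. The cause of these changes was not tested. With 211 to 305 counts per library, Pdp2 has the widest counting error of the members.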
